A study of Mus musculus with 23 samples.

Results

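The DNA replication and S phase genes are 40 genes whose products license, start, carry out and supply the copying of the genome. They were taken from the deposited table of estimated counts by matching listed gene symbols to Ensembl identifiers, and make up 40 of its 55401 gene rows. The matching used no measured value, but the list was chosen with earlier results of these data known. RNA was sequenced in 23 bulk libraries from sections of subcutaneous flank tumours of TC2Ras cells, a line of TRAMP-C2 mouse prostate adenocarcinoma cells that carries activated H-ras from a lentivirus. Male C57BL/6 mice of 8 to 10 weeks bore the tumours. Every mouse received 10 µg of plasmid per tibialis anterior muscle by sonoporation, which uses ultrasound and microbubbles to bring DNA into cells. The plasmid was pTSTA-ctrl, here called the empty vector (EV), or pTSTA-IL27pepL, here called the IL-27 vector (IL27v), so the vector was placed in the leg and the RNA came from the flank. Tumour samples of both vectors were then kept ex vivo in media, docetaxel (a microtubule-stabilising drug), anti-PD-L1 antibody, cabozantinib (an inhibitor of MET and VEGF receptor kinases), IL-27, or both of the last agents together, which gives 12 groups. The sources used here give neither the dose nor the length of an ex vivo exposure. There were 2 libraries in 11 groups and 1, numbered 2, for ex vivo IL-27 under IL27v. No label ties the replicates to different mice, so each p-value measures only how far these samples scatter, and that scatter may be technical.

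Replication is licensed when the origin recognition complex and Cdc6 let Cdt1 load the MCM helicase on DNA. Cdc45 and the GINS complex then join the helicase, and polymerases, the sliding clamp and its loader follow. The transcripts of most of these factors are made under control of E2F transcription factors as cells go from G1 into S phase, so in a tumour section they are commonly read as a mark of proliferating cells.

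Levels are given in CPM, counts scaled by library size and TMM factor, and 1 CPM stood for 36.3 to 86.5 estimated counts depending on the library (totals of 47.6e6 to 83.1e6). The lowest estimated count of any of the 40 genes in any library was 224, for Pold1. The libraries fell into 3 sets that the group labels do not name, told apart by the summed level of 13 skeletal muscle genes and by Ngp, a neutrophil granule gene. Set A held 9 EV libraries, with muscle transcripts at no more than 18.4 CPM and Ngp at no more than 0.118 CPM. Set B held EV anti-PD-L1 2, both EV cabozantinib with IL-27 libraries and both IL27v media libraries, at 483 to 711 CPM and 14.1 to 18.8 CPM. Set C held 8 IL27v libraries, with muscle transcripts at 618 to 974 CPM and Ngp at 0. IL27v docetaxel 1 was placed in no set, as 27.2% of its counts came from ribosomal RNA. All 4 media libraries of the ex vivo comparisons thus lay in set A (EV) or set B (IL27v), and every other IL27v library lay outside set B. The trend of log2 level with GC content also differed, at -0.60 to -0.16 log2 units per 10 points of GC in set B, -0.20 to 0.52 in set A and 0.04 to 0.37 in set C. Of the markers of the labelled prostate origin, Pbsn was at 0 in all 23 libraries. Of the epithelial keratins, Krt8 lay at 1.21 to 122 CPM and Krt18 at up to 2.51 CPM. The fibroblast gene Col1a1 lay at 69.1 to 1185 CPM.

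All 40 genes passed the filter on low counts that left 24440 genes to test. Summed, they took 2753 CPM in the lowest library, IL27v media 2, and 3882 CPM in the highest, IL27v anti-PD-L1 1. They varied less between libraries than most genes above 5 CPM. The median SD of log2 CPM over the 23 libraries was 0.34 for the 40 genes and 0.446 for 10818 genes with a mean of at least 5 CPM, and 34 of the 40 lay below that second median. Pcna and Rpa1 varied least, both with an SD of 0.17, and Pold1, Cdt1, Pola1 and Ccne2 varied most, with SDs of 1.14, 1.04, 0.68 and 0.60.

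**Figure D1:**
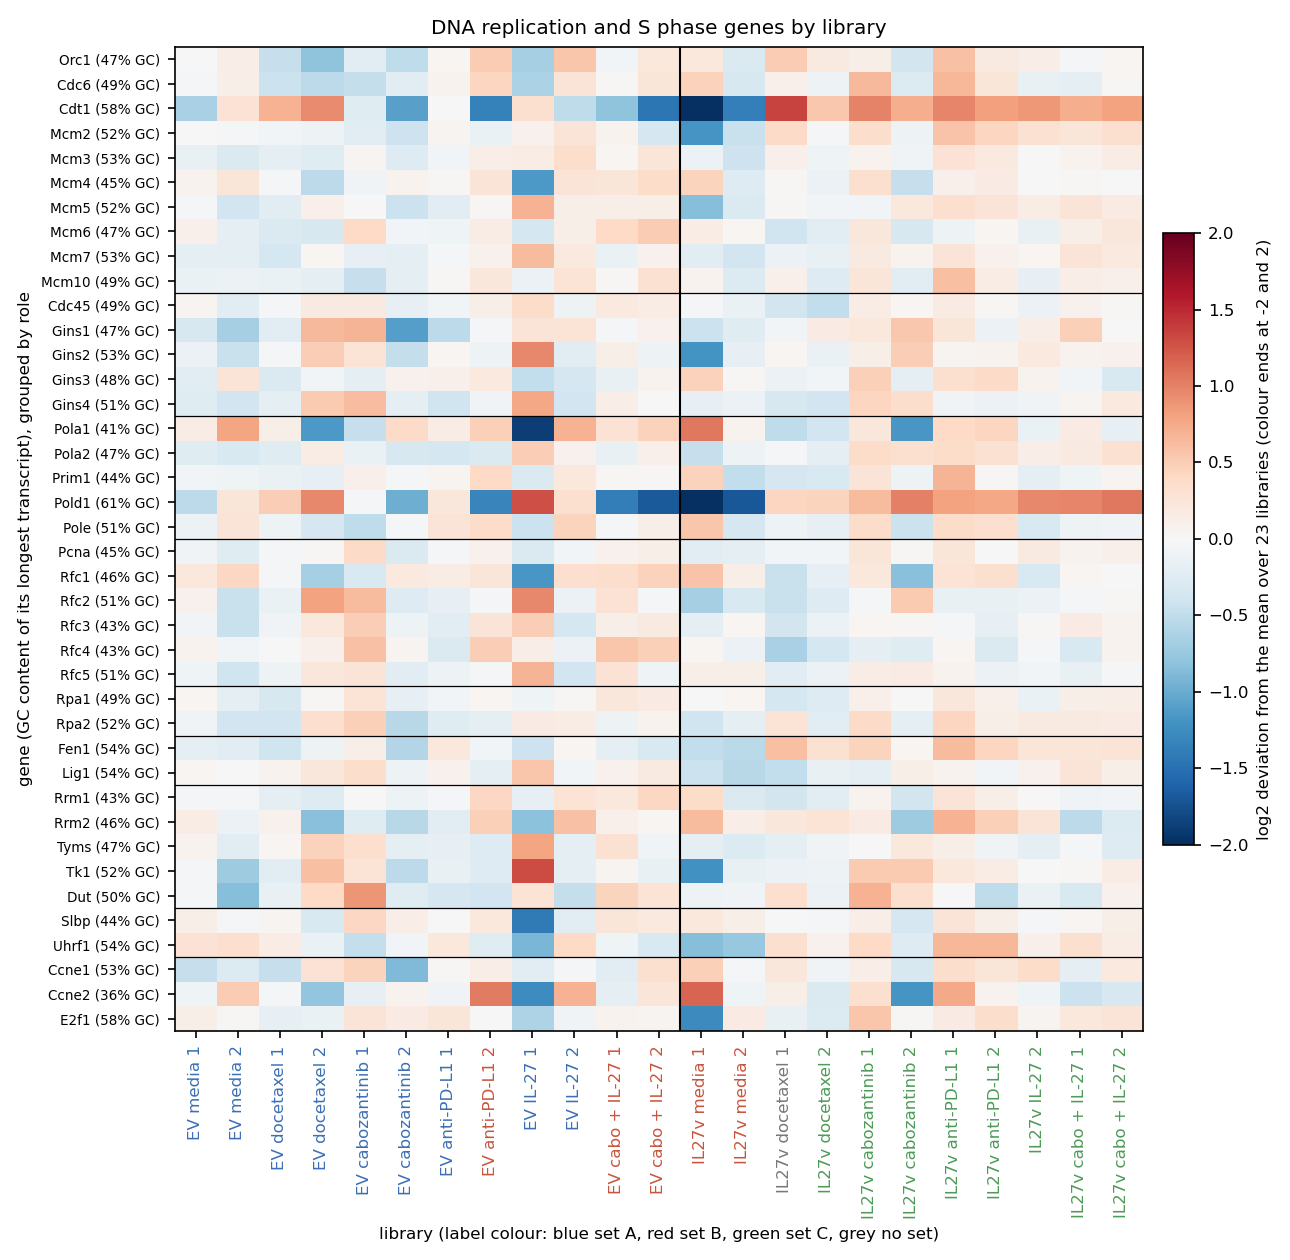
Log2 deviation of each of the 40 genes (vertical axis, with GC content of the longest transcript) from its own mean, in each of 23 libraries (horizontal axis, EV left and IL27v right, label colours giving the sets). Cdt1 and Pold1 are low in the 5 set B libraries, with the lowest values in IL27v media 1, and EV IL-27 1 departs from the mean in many genes in both directions.

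Levels per kilobase of the longest transcript ordered the factors as follows. Pcna, the sliding clamp that holds polymerases on DNA, was highest at a mean of 169 CPM per kilobase. The 6 subunits of the MCM helicase ran from 21.5 for Mcm2 to 71.7 for Mcm7, which came second, and the ranges over libraries of Pcna and Mcm7 did not overlap. Orc1, the largest subunit of the origin recognition complex, was lowest at 3.71, below Gins3 at 5.67, Cdc6 at 6.39 and Ccne1 at 6.93. The ranges over libraries of these 4 genes overlapped, so their order is not beyond their spread. Subunits of complexes that hold 1 copy of each were not level with each other. The GINS complex ran from 5.67 for Gins3 to 31.2 for Gins4, and the clamp loader from 13.4 for Rfc2 to 33.4 for Rfc4. Lengths are those of the annotation, and which transcripts these tumours make was not tested. Exons of Mcm7, Rfc2, Rfc4 and Orc1 overlap genes on the opposite strand, and whether counting used strand is not stated.

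**Figure D2:**
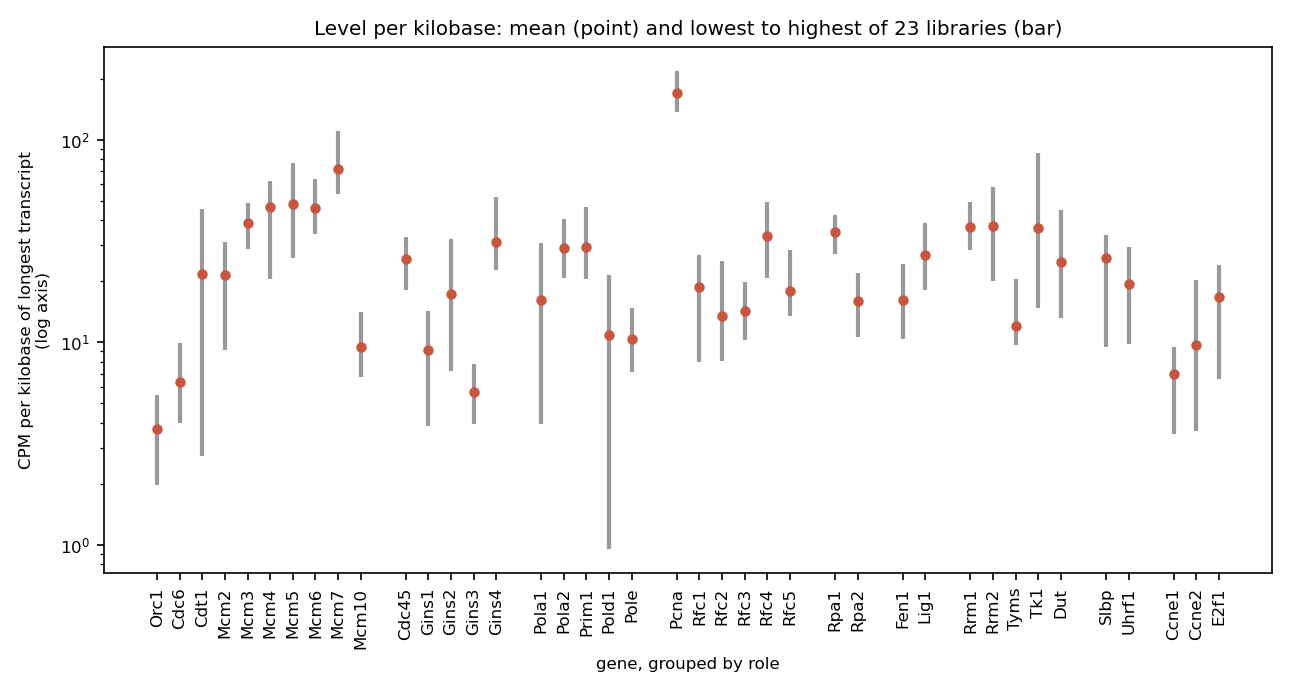
Level of each gene in CPM per kilobase of its longest transcript (vertical log axis), with genes grouped by role on the horizontal axis. Points are means over 23 libraries and bars run from the lowest to the highest library, with Pcna highest at 169 and Orc1 lowest at 3.71.

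Docetaxel against media, averaged over EV and IL27v, was the only 1 of 6 averaged comparisons in which members were called. Cdt1, which brings the MCM helicase to origins, and Pold1, the catalytic subunit of DNA polymerase delta that extends the lagging strand, both rose. Cdt1 (ENSMUSG00000006585, GRCm38 chromosome 8, 122568015 to 122573554, plus strand) was at 30.1, 58.6, 7.38 and 18.2 CPM in EV media 1 and 2 and IL27v media 1 and 2. With docetaxel it was at 77.5, 92.2, 122 and 69.3 CPM in EV 1 and 2 and IL27v 1 and 2. All 4 docetaxel libraries were above all 4 media libraries, and the lowest values were those of the IL27v media libraries. The difference was 1.92 ± 0.37 (log2 ± SE), or 3.78-fold with a 95% interval of 2.20 to 6.48 (edgeR adjusted p = 0.018). Pold1 (ENSMUSG00000038644, GRCm38 chromosome 7, 44532746 to 44548849, minus strand) was at 20.9, 35.9, 3.33 and 9.01 CPM in the same media libraries and 42.8, 59.3, 41.0 and 41.4 CPM with docetaxel. Here too the groups did not overlap, and IL27v media 1 was lowest. The difference was 1.79 ± 0.38, or 3.47-fold with an interval of 2.00 to 6.00 (edgeR adjusted p = 0.024). No exon of another annotated gene overlaps Cdt1 or Pold1. Among all genes tested 1.79% were called for docetaxel, 1.76% higher, so these are 2 of 40 members against that background. DESeq2 called the same 2 genes among 5.48% of the genes it fitted.

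The estimates were larger in the IL27v libraries, where media is set B and docetaxel is not, but the difference between the vectors did not pass its test. In IL27v alone Cdt1 differed by 2.90 ± 0.54 and Pold1 by 2.74 ± 0.55 (edgeR adjusted p = 0.0099 and 0.015; 2.79% of genes called), and exposure and set cannot be told apart there. In EV alone, where all 4 libraries belong to set A, Cdt1 differed by 0.93 ± 0.51 and Pold1 by 0.85 ± 0.52 (edgeR adjusted p = 0.82 for both). The EV docetaxel and media libraries did not overlap for either gene. With 2 libraries in each group that is a weak separation, and the share of all genes showing it was not computed. The test of the difference between the vectors gave 1.97 ± 0.72 for Cdt1 and 1.89 ± 0.74 for Pold1 (edgeR adjusted p = 0.64 and 0.71). Leaving out the set B libraries, an alternative chosen after the data were seen, removes IL27v media, so only the EV comparison remains. Refitted, that comparison gave 0.82 ± 0.42 for Cdt1 and 0.73 ± 0.41 for Pold1 (edgeR adjusted p = 0.82 for both). Both genes are rich in GC, and an offset for each library's GC trend left 1.10 ± 0.28 for Cdt1 and 0.62 ± 0.23 for Pold1 (edgeR adjusted p = 0.11 and 0.28). Both calls were also lost without EV media 1, EV media 2, EV docetaxel 2, IL27v media 1 or IL27v docetaxel 1, with edgeR adjusted p of 0.054 to 0.19 for Cdt1, at 1.64 to 2.20, and 0.066 to 0.21 for Pold1. Of 7 keratinocyte marker genes 2 were called higher with docetaxel, but only the IL27v docetaxel libraries held high levels of this list. Its summed level was 2657 CPM (IL27v docetaxel 1) or 2534 CPM (IL27v docetaxel 2). No EV docetaxel library exceeded 8.27 CPM, and no media library 20.1 CPM. The summed level of the neutrophil markers was likewise highest in IL27v docetaxel 1 (231 CPM) and 2 (248 CPM). It reached at most 73.3 CPM in media and 1.18 CPM in EV docetaxel. The part of these markers in the result was not tested. In bulk tissue fewer cells of a type and less RNA per cell cannot be told apart.

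**Figure D3:**
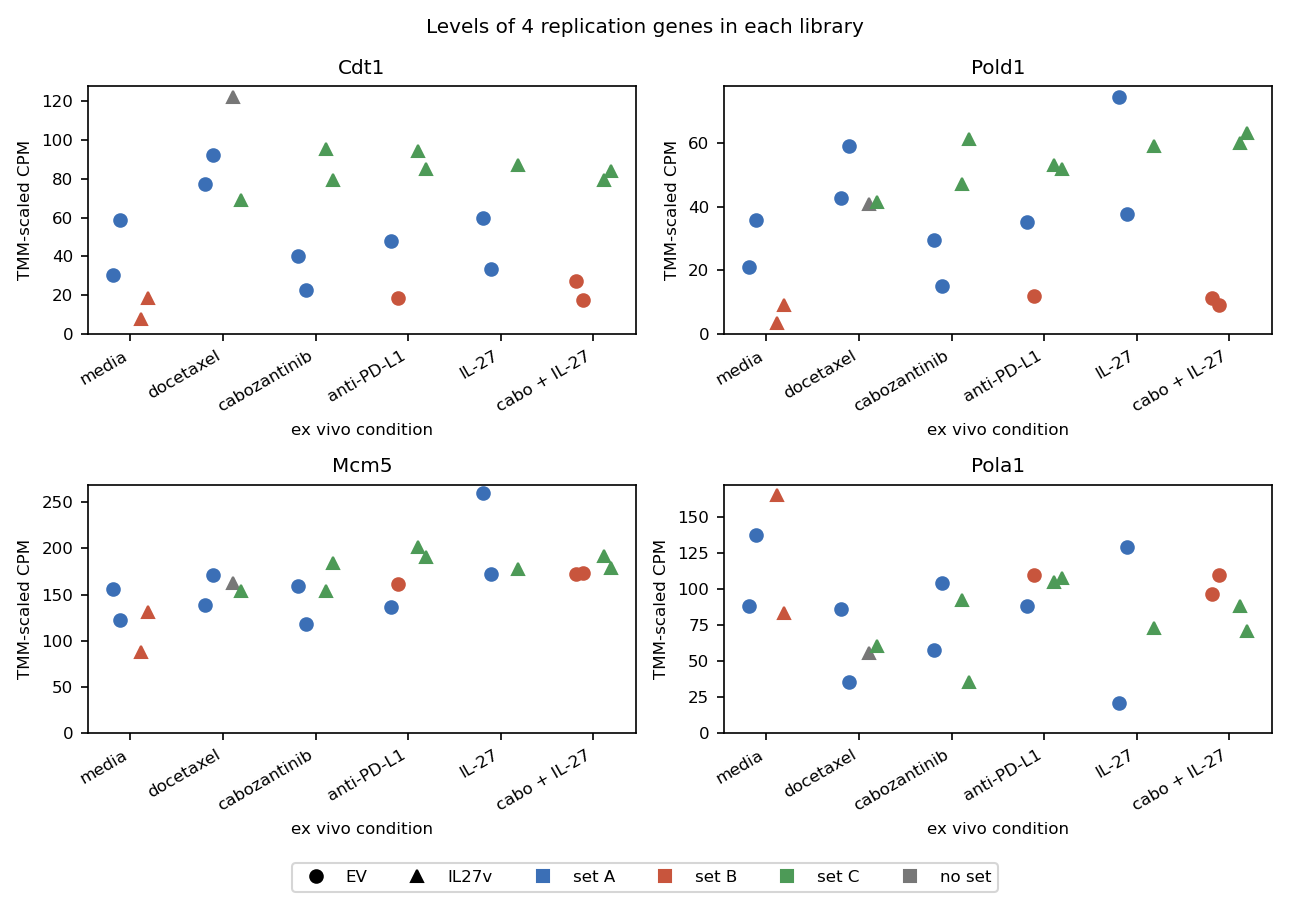
Levels of Cdt1, Pold1, Mcm5 and Pola1 in TMM-scaled CPM (vertical axes, starting at 0) in every library, by ex vivo condition (horizontal axes), with circles for EV, triangles for IL27v and colours for the sets of libraries. The docetaxel points of Cdt1 and Pold1 lie above all media points, while those of Mcm5 and Pola1 overlap with media.

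The promoters of Cdt1 and Pold1 are printed because these members were called, with those of Mcm5, which lay closest to a call with the combination, and Pola1, which differed most in the other direction with docetaxel. Each is 1 strand of RefSeq (GRCm38.p6) in the direction of the gene, from 250 bases before to 50 bases after the annotated start. Capitals mark the E2F-type motifs TTTCCCGC or TTTGGCGC, or their reverse complements.
Cdt1 (chr8:122567765-122568064, plus strand): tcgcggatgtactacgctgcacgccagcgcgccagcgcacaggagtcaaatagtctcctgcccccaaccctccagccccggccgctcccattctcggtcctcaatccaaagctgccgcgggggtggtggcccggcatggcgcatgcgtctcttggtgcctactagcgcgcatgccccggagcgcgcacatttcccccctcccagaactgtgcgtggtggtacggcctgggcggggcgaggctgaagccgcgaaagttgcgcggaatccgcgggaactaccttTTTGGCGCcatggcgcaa
Pold1 (chr7:44548766-44549065, minus strand): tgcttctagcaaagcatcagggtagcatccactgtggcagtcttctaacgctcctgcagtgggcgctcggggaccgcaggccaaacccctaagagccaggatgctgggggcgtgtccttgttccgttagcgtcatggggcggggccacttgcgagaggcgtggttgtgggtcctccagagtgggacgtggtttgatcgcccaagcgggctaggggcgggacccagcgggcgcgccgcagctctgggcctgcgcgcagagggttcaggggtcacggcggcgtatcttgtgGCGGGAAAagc
Mcm5 (chr8:75109259-75109558, plus strand): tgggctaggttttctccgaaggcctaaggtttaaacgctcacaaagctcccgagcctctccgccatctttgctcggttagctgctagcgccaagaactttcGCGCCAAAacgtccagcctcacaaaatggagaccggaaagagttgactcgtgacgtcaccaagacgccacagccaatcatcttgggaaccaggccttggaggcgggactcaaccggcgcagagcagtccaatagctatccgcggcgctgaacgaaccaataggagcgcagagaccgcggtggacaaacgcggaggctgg
Pola1 (chrX:93632106-93632405, minus strand): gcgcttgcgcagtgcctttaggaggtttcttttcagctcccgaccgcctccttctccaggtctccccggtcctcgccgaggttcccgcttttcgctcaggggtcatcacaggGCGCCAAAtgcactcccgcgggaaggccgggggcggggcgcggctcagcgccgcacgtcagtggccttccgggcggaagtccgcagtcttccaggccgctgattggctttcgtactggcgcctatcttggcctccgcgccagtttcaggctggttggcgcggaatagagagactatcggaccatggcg
The match begins 32 bases after the start in Cdt1 and 39 after it in Pold1, and 138 and 149 bases before it in Pola1 and Mcm5. Promoters were found for 33 of the 40 genes. Some genes have more than 1 listed promoter, and a gene was counted if any of them held the motif. On either strand, TTTCCCGC was found for 6 of the 33 genes (18.2%) and TTTGGCGC for 5 (15.2%). At least 1 of these motifs was found for 10 of 33 (30.3%), against 1.80% of 27025 genes with promoters of the same length. The others with a match were Cdc6, Mcm3, Mcm6, Mcm7, Gins3 and Rfc3. CCAAT, the box bound by NF-Y, was found for 60.6% of the 33 genes and for 41.1% of all genes. TTTGAA, the core of the cell cycle homology region found in genes of mitosis, was found for 12.1% of the 33 and 20.2% of all genes. It was found for 71.4% of 21 mitosis genes, of which none held an E2F-type motif. These letters are a description, and binding was not measured. Called and uncalled members alike held a match, as Mcm5 and Pola1 show.

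Of the 10 genes of origin recognition and licensing, Cdt1 was the only 1 called with docetaxel. Among the 10, 5 lay above and 5 below their media level, with a median difference of 0.05. Mcm2, a helicase subunit, differed by 0.45 ± 0.20 (edgeR adjusted p = 0.29). Mcm6, another subunit, was at 210, 171, 218 and 203 CPM in media and at 161, 157, 149 and 167 CPM with docetaxel. Its groups did not overlap, and its difference of -0.34 ± 0.18 did not pass the test (edgeR adjusted p = 0.39). Cdc6, the loader that works with Cdt1, differed by -0.33 ± 0.26, and Orc1 by -0.17 ± 0.29. Over all members 4 were higher in every docetaxel library than in every media library (Cdt1, Pold1, Pcna and Gins1; 5.14% of all genes) and 2 lower in every one (Mcm6 and Rfc1; 3.55% of all genes). At an unadjusted p under 0.05 there were 6 members, 15.0% of the 40, and 15.3% of all genes. The median difference over the 40 was 0.08, with 22 above and 18 below 0, and over all genes it was 0.00.

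Among the other polymerase genes, Pola1, the catalytic subunit that works with primase at the start of each new strand, was at 87.9, 137, 165 and 83.1 CPM in media and 86.1, 35.5, 55.4 and 60.4 CPM with docetaxel. These ranges overlapped. Its difference was -0.99 ± 0.45 (edgeR adjusted p = 0.30), the most negative of the 40. Rfc1, the largest subunit of the clamp loader, was at 99.5, 114, 127 and 93.2 CPM in media and 83.3, 53.8, 62.7 and 76.2 CPM with docetaxel. It was lower in every docetaxel library, with a difference of -0.65 ± 0.29 that did not pass (edgeR adjusted p = 0.30). Pcna was at 242, 215, 217 and 224 CPM in media and 248, 258, 245 and 246 CPM with docetaxel, a difference of 0.15 ± 0.17 with no overlap between groups. Fen1, the nuclease that trims flaps on Okazaki fragments, differed by 0.48 ± 0.21 (edgeR adjusted p = 0.28).

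The docetaxel differences of the 40 genes followed GC content. Spearman's correlation across the 40 genes between the log2 difference and the GC content of the longest transcript was 0.64, and it was 0.70 across 10814 genes above 5 CPM. Genes are not independent, and they share the 8 libraries of the comparison. The trend was not particular to docetaxel, as the other exposures gave 0.61 to 0.66 across the 40 genes when averaged over the vectors. Over all exposures the correlation was 0.69 to 0.72 in IL27v alone and -0.20 to 0.41 in EV alone. Cdt1 has 57.8% and Pold1 61.0% GC, at the 91.3 and 98.3 percentiles of genes above 5 CPM, while Pola1 has 41.5% and Ccne2 36.3%. E2f1, an activating E2F factor, has 58.3% GC and differed by -0.03 ± 0.25 without the offset. The part of GC content and of the sets in the docetaxel result was not tested beyond the values above.

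**Figure D4:**
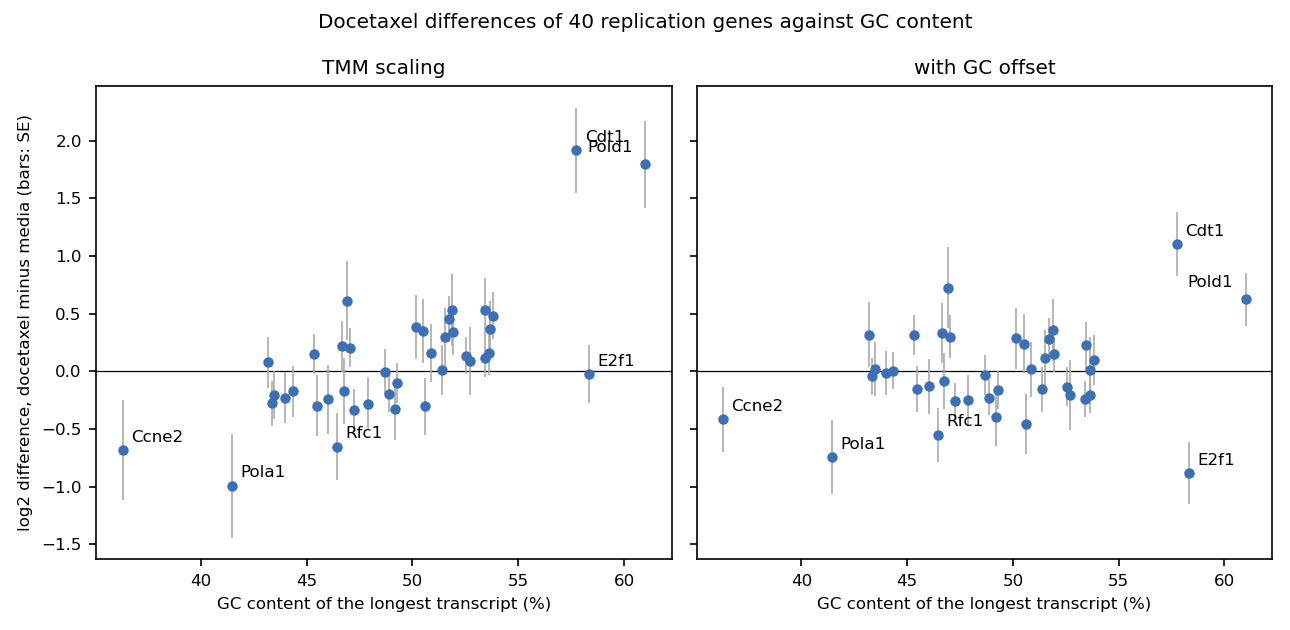
Log2 difference between docetaxel and media for the 40 genes (vertical axis, bars are SE) against GC content of the longest transcript in percent (horizontal axis), with TMM scaling alone (left) and with an offset for each library's GC trend (right). Cdt1 moves from 1.92 to 1.10 and Pold1 from 1.79 to 0.62 with the offset.

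Cabozantinib called no member (edgeR, with 0% of all genes called). At an unadjusted p under 0.05 there were 6 members, against 10.5% of all genes, and DESeq2 called 1, Pold1, with 0.951% of genes called. No member lay beyond all media libraries in either direction, against 2.06% of genes higher and 2.30% lower. Pold1 was at 29.6, 15.1, 47.1 and 61.5 CPM in EV cabozantinib 1 and 2 and IL27v cabozantinib 1 and 2. The EV libraries lay within or below the range of EV media and the IL27v libraries far above IL27v media. The averaged difference was 1.40 ± 0.37 (edgeR adjusted p = 0.34), and that of Cdt1 1.13 ± 0.36 (edgeR adjusted p = 0.37). Dut, which destroys dUTP and so keeps uracil out of DNA, differed by 0.72 ± 0.28, and Gins4, a GINS subunit, by 0.56 ± 0.25 (edgeR adjusted p = 0.43 and 0.47). In EV alone the values were -0.34 ± 0.52 for Pold1 and -0.51 ± 0.51 for Cdt1. In IL27v alone they were 3.14 ± 0.56 and 2.77 ± 0.54 (edgeR adjusted p = 0.018 and 0.022; 1.88% of genes called).

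Anti-PD-L1 called no member (edgeR, 0% of all genes called), with 8 at an unadjusted p under 0.05 against 5.85% of genes, and DESeq2 called 0 with 0.353% of genes called. Of the members, 35 of 40 had differences above 0, with a median of 0.24 against -0.01 over all genes. That median was 0.12 in EV alone. Without the set B libraries it was 0.018, which is again EV alone, with EV anti-PD-L1 1 as the only exposed library. Higher in every anti-PD-L1 library than in every media library were 5 members (Mcm3, Pcna, Gins2, Fen1 and Mcm7; 0.957% of genes), and 0 were lower (1.05% of genes). Fen1 was at 32.3, 31.5, 26.1 and 25.2 CPM in media and 42.8, 35.5, 57.7 and 49.8 CPM with anti-PD-L1. The IL27v libraries were the highest, and the difference was 0.68 ± 0.21 (edgeR adjusted p = 0.63). Mcm2 differed by 0.64 ± 0.20, Cdt1 by 1.20 ± 0.36 and Pold1 by 1.41 ± 0.37 (edgeR adjusted p = 0.63, 0.63 and 0.56). In IL27v alone Cdt1, Pold1 and Mcm2 passed, at 2.81 ± 0.54, 3.09 ± 0.56 and 1.29 ± 0.28 (edgeR adjusted p = 0.029, 0.025 and 0.046; 0.867% of genes called), and set B is again the reference there. In EV alone Cdt1 differed by -0.42 ± 0.50, Pold1 by -0.27 ± 0.51 and Mcm2 by -0.01 ± 0.28.

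Ex vivo IL-27, with 3 libraries, called no member (edgeR, 0% of all genes called). There were 8 at an unadjusted p under 0.05 against 11.9% of genes, and DESeq2 called 4, Pold1, Cdt1, Mcm5 and Mcm2, with 1.94% of genes called. Higher in every IL-27 library were 8 members (Rpa2, Pold1, Mcm3, Pola2, Mcm5, Mcm2, Gins1 and Mcm7; 3.36% of genes), and 1, Slbp, was lower (4.12% of genes). Pold1 was at 74.6 and 37.8 CPM in EV IL-27 1 and 2 and 59.1 CPM in IL27v IL-27 2, all above the highest media library at 35.9 CPM. Its difference was 2.12 ± 0.40 (edgeR adjusted p = 0.19), and that of Cdt1 was 1.42 ± 0.39 and that of Mcm2 0.64 ± 0.22 (edgeR adjusted p = 0.20 and 0.27). In EV alone the values were 0.98 for Pold1, 0.08 for Cdt1 and 0.20 for Mcm2. Without IL27v IL-27 2, the only library of its group, this same EV comparison is all that remains. Refitted, it gave 1.02 for Pold1 and 0.11 for Cdt1 (edgeR adjusted p = 0.61 and 0.98). Mcm5 was at 156, 122, 88.1 and 131 CPM in media and 260, 173 and 177 CPM with IL-27, a difference of 0.67 ± 0.21 (edgeR adjusted p = 0.25). Slbp, which binds the stem-loop of histone mRNA, was at 80.3, 72.4, 86.2 and 80.3 CPM in media and 27.5, 63.1 and 71.7 CPM with IL-27, a difference of -0.48 ± 0.25 (edgeR adjusted p = 0.46).

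The replicates of EV IL-27 were the least alike of the 11 pairs, with a median absolute log2 difference of 0.68 over the 40 genes and 0.09 to 0.45 in the other pairs. EV IL-27 1 had the most positive GC trend of the 23 libraries, 0.52 per 10 points. It held the highest levels of the 23 libraries for Mcm5, Mcm7, Tk1 (213 CPM) and Gins2 (127 CPM), and the lowest for Pola1 (21.0 CPM), Slbp, Mcm4 (73.3 CPM), Rfc1 and Ccne2 (10.9 CPM). Tk1 is the salvage kinase for thymidine and Ccne2 a cyclin of the G1/S transition. Without EV IL-27 2, so that EV IL-27 1 stands alone for its group and is assumed to vary like the others, 10 members were called, among 1547 genes higher and 2274 lower. Of the 10, 7 were higher (Cdt1, Mcm5, Mcm7, Gins2, Pola2, Pold1 and Tk1) and 3 lower (Pola1, Rfc1 and Slbp). Without IL27v media 2, 3 were called (Cdt1, Mcm2 and Pold1).

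Cabozantinib with IL-27 called no member (edgeR, 0.00409% of all genes called), with 8 at an unadjusted p under 0.05 against 4.47% of genes, and DESeq2 called 0 with 0.211% of genes called. Of the members, 33 of 40 lay above 0, with a median of 0.27 against 0.03 over all genes. That median was 0.15 with the GC offset and 0.11 with library sets in an additive model. Higher in every library of the combination were 10 members (Mcm3, Mcm5, Mcm7, Gins1, Gins2, Gins4, Pcna, Rfc3, Rpa1 and Lig1; 1.77% of genes), and 0 were lower (2.25% of genes). Mcm5 was at 173, 174, 192 and 178 CPM in EV 1 and 2 and IL27v 1 and 2, against 88.1 to 156 CPM in media, and differed by 0.54 ± 0.20. Rpa1, the large subunit of the single-strand binding protein, was at 207, 198, 192 and 193 CPM against 182, 155, 178 and 181 CPM in media, a difference of 0.18 ± 0.16. Lig1, the ligase that joins Okazaki fragments, differed by 0.40 ± 0.19 and Mcm2 by 0.48 ± 0.20. The averaged difference was 0.92 ± 0.37 for Pold1 and 0.84 ± 0.36 for Cdt1. All of these had an edgeR adjusted p of 0.88 or 0.89. The exposures share the 4 media libraries, so their values are not independent of each other.

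**Figure D5:**
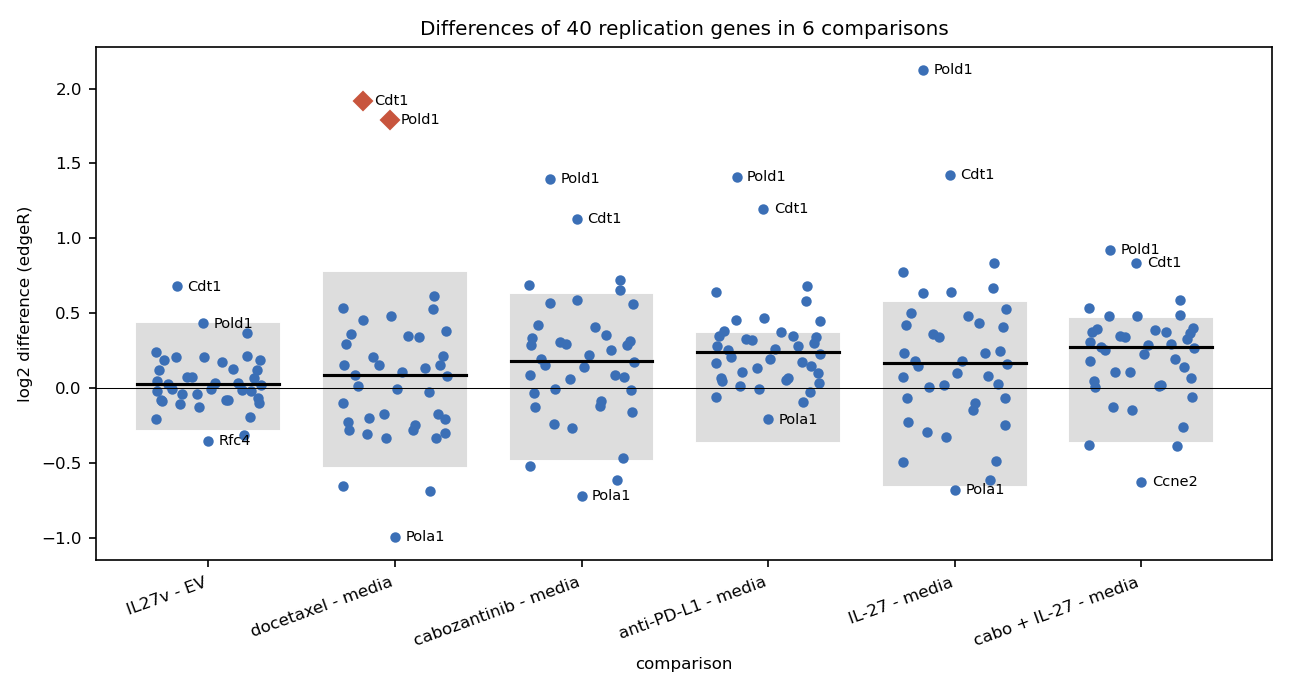
Log2 difference (vertical axis) of each of the 40 genes in 6 comparisons (horizontal axis), with red diamonds for genes called by edgeR, a black line at the median of the 40 genes and a grey box from the lower to the upper quartile of all genes tested. Cdt1 and Pold1 are called for docetaxel, and the medians lie between 0.03 and 0.27.

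For the combination the vectors differed. Cdt1 was at 27.2 and 17.2 CPM in the EV libraries and 79.5 and 83.8 CPM in the IL27v libraries, against 30.1 and 58.6 CPM in EV media and 7.38 and 18.2 CPM in IL27v media. Pold1 was at 11.3 and 9.08 CPM in EV and 60.1 and 63.3 CPM in IL27v, against 20.9 and 35.9 CPM in EV media and 3.33 and 9.01 CPM in IL27v media. Both genes were lower than media in EV and higher than media in IL27v, without overlap. Each group held only 2 libraries, and the share of all genes separated in this way was not computed. The difference between the vectors in the effect of the combination was 3.67 ± 0.74 for Cdt1 and 4.80 ± 0.77 for Pold1 (edgeR adjusted p = 0.019 and 0.0091), 2 of 40 members against 1.46% of all genes. At an unadjusted p under 0.05 there were 4 members, against 9.59% of genes, and DESeq2 called 4, Cdt1, Pold1, Mcm2 and Uhrf1, with 3.47% of genes called. In EV alone the combination differed from media by -0.999 ± 0.509 for Cdt1 and -1.48 ± 0.53 for Pold1, and in IL27v alone by 2.67 ± 0.54 and 3.32 ± 0.56 (edgeR adjusted p = 0.040 and 0.032 in IL27v; 0.904% of genes called). Of 10 neutrophil markers 3 were called lower in the same test of the vectors, and 1 of 13 muscle markers. The libraries that are low here, EV combination and IL27v media, are 4 of the 5 of set B, so vector, exposure and set cannot be told apart. With the GC offset Pold1 kept the call at 2.99 ± 0.47 and Cdt1 did not at 2.60 (edgeR adjusted p = 0.018 and 0.051). Both calls were lost without EV media 2 or either EV library of the combination, where Pold1 was at 4.36 to 4.97 and Cdt1 at 3.11 to 4.04, and that of Cdt1 also without IL27v media 1 or either IL27v library of the combination (edgeR adjusted p of 0.053 to 0.17).

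The fifth set B library, EV anti-PD-L1 2, had 18.3 CPM of Cdt1 and 11.9 CPM of Pold1, where EV anti-PD-L1 1 of set A had 48.1 and 35.4 CPM. Over the sets, Cdt1 had a median of 48.1 CPM in set A (22.3 to 92.2), 18.2 CPM in set B (7.38 to 27.2) and 84.5 CPM in set C (69.3 to 95.4). Pold1 had medians of 35.9 CPM (15.1 to 74.6), 9.08 CPM (3.33 to 11.9) and 56.1 CPM (41.4 to 63.3). For Pold1 set B did not overlap with either other set, and for Cdt1 it overlapped only with set A. Pcna, by contrast, had medians of 245, 270 and 271 CPM with overlapping ranges. The sets were told apart by other genes, and no test was made between them.

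No member was called in the other interactions. For docetaxel, cabozantinib, anti-PD-L1 and IL-27 edgeR called 0 of 40 members each, against 0.0205%, 0.0205%, 0% and 0% of all genes. At an unadjusted p under 0.05 there were 5, 4, 4 and 3 members, against 6.15%, 7.66%, 7.62% and 4.14% of genes. DESeq2 called 0, 3, 4 and 0 members, against 0.821%, 1.78%, 1.47% and 0.148% of genes. Its calls were Cdt1, Pold1 and Mcm2 for cabozantinib and these with Uhrf1, which keeps DNA methylation through replication, for anti-PD-L1. Within EV alone, edgeR called 0 members for docetaxel, cabozantinib, anti-PD-L1, IL-27 and the combination, where 0%, 0%, 0%, 0% and 0.00409% of all genes were called. At an unadjusted p under 0.05 there were 0, 1, 0, 5 and 1 members in that order, against 2.94%, 1.82%, 1.41%, 5.21% and 3.92% of genes. For IL-27 in IL27v alone edgeR also called 0 members (0% of genes), with 5 at an unadjusted p under 0.05 against 7.30% of genes.

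The vector comparison, IL27v against EV averaged over the 6 conditions, called 0 members although 2.95% of all genes were called (edgeR). There were 3 members at an unadjusted p under 0.05, Cdt1, Fen1 and Rfc4, against 14.5% of genes, and DESeq2 called these 3, with 6.42% of genes called. The median difference of the 40 was 0.03, with 21 above and 19 below 0, and over all genes it was 0.01. Cdt1 ranged from 17.2 to 92.2 CPM in the 12 EV libraries, with a median of 36.9, and from 7.38 to 122 CPM in the 11 IL27v libraries, with a median of 83.8. Its difference was 0.68 ± 0.21 (edgeR adjusted p = 0.11), and the EV range lay within the IL27v range. With library sets in an additive model the difference turned to -0.68 for Cdt1 and to -0.23 for Fen1. Set A held only EV and set C only IL27v libraries, so in that fit the vectors met only in set B. There they shared no condition, so vector and set can hardly be told apart. Fen1 differed by 0.37 ± 0.12, Rfc4 by -0.35 ± 0.13 and Pola2, the second subunit of polymerase alpha, by 0.21 ± 0.10 (edgeR adjusted p = 0.13, 0.17 and 0.39). No member lay beyond all EV libraries in either direction, against 0.0286% of genes higher and 0.0245% lower. Exons of Fen1 and Rfc4 overlap genes on the opposite strand, and whether counting used strand is not stated. The 13 skeletal muscle genes were all called higher in IL27v in the same comparison, as were 4 of 7 keratinocyte and 4 of 5 erythroid markers, and their part in it was not tested.

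No gene of nucleotide supply, histone mRNA binding, DNA methylation upkeep or G1/S control was called in the 6 averaged comparisons. Rrm1 and Rrm2, the subunits of ribonucleotide reductase, differed from media by between -0.28 and 0.17 and between -0.52 and 0.16 in the 5 exposures. Tyms, which makes thymidylate, differed by 0.05 to 0.25. Tk1 differed by 0.45 to 0.84, with the largest value for IL-27 (edgeR adjusted p = 0.36). Ccne1 and Ccne2, the cyclins that start S phase with Cdk2, differed by -0.01 to 0.26 and by -0.68 to 0.07. E2f1 differed by -0.03 to 0.42 and was lowest in IL27v media 1, at 18.2 CPM where the other libraries had 28.8 to 66.0 CPM. Uhrf1 differed by 0.18 to 0.58, and was at 36.7 and 39.1 CPM in the IL27v media libraries against 81.1 and 84.6 CPM in EV media. Mcm10 and Cdc45, which act in helicase activation, differed by -0.03 to 0.38 and -0.10 to 0.19.

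The rest of the pathway was read from lists of other genes. Of 37 other replication genes 1 was called for docetaxel and 0 in the other 5 averaged comparisons (edgeR). It was Chtf18, a subunit of an alternative clamp loader, which rose by 1.69 ± 0.41 (edgeR adjusted p = 0.046), where 1.79% of all genes were called. Gmnn, the inhibitor of Cdt1, differed by -0.05 ± 0.20 with docetaxel. Of 27 genes of G1/S and E2F control, Cdkn2a and Myc rose with docetaxel, by 2.47 ± 0.50 and 1.07 ± 0.24 (edgeR adjusted p = 0.020 and 0.031), and Cdkn1a, the inhibitor p21, was higher in IL27v by 0.57 ± 0.14 (edgeR adjusted p = 0.036; 2.95% of all genes called). Both docetaxel genes were also low in set B, to which IL27v media belongs. Cdkn2a had means of 55.9, 14.2 and 78.6 CPM in sets A, B and C, and Myc 67.3, 42.1 and 86.6 CPM. Cdkn1a had means of 189, 154 and 262 CPM in the same sets, of which A held only EV and C only IL27v libraries. The part of the sets in the calls of these genes was not tested. Myc was at 55.7, 66.2, 23.5 and 47.7 CPM in media and 78.7, 102, 124 and 88.8 CPM with docetaxel, without overlap. Ccnd1, the cyclin of early G1, differed by -0.26 ± 0.24 with docetaxel. Of 25 mitosis genes and 12 genes of the replication stress response none was called by edgeR in the 6 averaged comparisons, with 9 of the former and 1 of the latter at an unadjusted p under 0.05 for docetaxel (36.0% and 8.33% of the lists, against 15.3% of all genes). Top2a, the topoisomerase of mitotic chromosomes, was at 509, 545, 768 and 451 CPM in media and 382, 233, 245 and 283 CPM with docetaxel. It was lower in every docetaxel library, with a difference of -0.99 ± 0.28 (edgeR adjusted p = 0.079), and Mki67 differed by -0.65 ± 0.35. The summed level of the 40 replication genes divided by that of the 25 mitosis genes ran from 0.896 in IL27v media 1 to 1.52 in IL27v docetaxel 1, the library with 27.2% ribosomal RNA.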

How the data were processed

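The deposited values are estimated counts per gene, in 1 table that the authors made from 23 libraries of stranded poly(A) RNA. Cutadapt, HISAT2, StringTie, DESeq2 and the build GRCm38 are named in the submitters' processing notes. No source used here gives their versions or settings, or says whether strand was used in counting. All values are whole, so rounding left them as they were. Symbols, coordinates, lengths and GC content (of the longest transcript) came from GENCODE vM21.

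The 40 genes, the other lists, the sets and the tests were chosen with earlier results of these data known. Any member may be named, and each averaged comparison names its called members or the 4 with the smallest p. Samples were grouped by title. Counts were fitted in R 4.3.3 with edgeR 4.0.16 (TMM, filterByExpr by group, glmQLFit and glmQLFTest) in 1 model of 12 group means, with Benjamini-Hochberg adjustment over 24440 genes and calls under 0.05. SE is the log2 difference divided by the square root of F. Scripts were tested on simulated data. There, 13% of 2-fold and 86% of 4-fold changes were recovered for docetaxel, and 70% and 99% for the vector. A member that was not called may therefore still differ. No pair of replicates agreed within sampling noise. Alternatives were DESeq2 1.42.0, RLE scaling, other filters, counts divided by 4, a replicate block, additive models, 1 vector alone, a GC offset and leaving out libraries.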

Additional observations from a re-analysis of the deposited data

Results flagged for a closer look

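In 2 members the effect of cabozantinib with IL-27 differed between the vectors by the test of that difference. Cdt1 differed by 3.67 ± 0.74 (log2 ± SE; edgeR adjusted p = 0.019) and Pold1 by 4.80 ± 0.77 (edgeR adjusted p = 0.0091). Both were lower than media in the EV libraries and higher than media in the IL27v libraries. Of the 8 libraries behind these values, the 4 low ones belong to set B, and the part of the sets was not tested apart from the vector and the exposure. No group held enough libraries to look for single libraries that stand apart.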

How the results depend on the processing

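For docetaxel the 2 calls held with RLE scaling, no filter, a filter at 1 CPM, counts divided by 4 and DESeq2, and 0 members were called with EV alone, the GC offset, the additive model, the additive model with library sets, or without the set B libraries. The last was chosen after seeing the data and, as IL27v media lies in set B, is again a comparison within EV alone. With the additive model Cdt1 differed by 1.45 and Pold1 by 1.29, and with library sets by 0.54 and 0.51 (edgeR adjusted p = 0.24, 0.30, 0.79 and 0.79). Replicate numbers pair nothing in the labels, and deviations of same-numbered samples correlated at -0.55 to 0.64 over 14 pairs of groups. With a replicate block the docetaxel members stayed at 2 (Cdt1 1.87, Pold1 1.78, edgeR adjusted p = 0.030 and 0.041), and no other count of members changed.

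Members called for the vector were 1 with no filter, 1 with the GC offset and 3 with DESeq2. They were 2, 2 and 1 for cabozantinib with IL27v alone, no filter and DESeq2, 3 and 2 for anti-PD-L1 with IL27v alone and no filter, 2 and 4 for IL-27 with no filter and DESeq2, and 2 for the combination with IL27v alone. For the difference between vectors they were 1, 2, 3 and 1 with no filter for docetaxel, cabozantinib, anti-PD-L1 and IL-27. DESeq2 gave 3 for cabozantinib, 4 for anti-PD-L1 and 4 for the combination, and the GC offset 1 for the combination.

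The members' median was -0.12 with the GC offset and -0.13 with library sets for the vector. It was -0.025, -0.063 and -0.070 for docetaxel with the GC offset, with library sets and without set B. Without set B, where only EV libraries are compared for an exposure, it was 0.048 for cabozantinib and 0.018 for anti-PD-L1. In EV alone with set B kept it was 0.12 for the latter. For the combination it was 0.15 with the GC offset and 0.11 with library sets. Between vectors the GC offset gave -0.29, 0.30 and 0.17 for docetaxel, anti-PD-L1 and the combination.

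Directions turned in 20 cases. With library sets these were Cdt1 at -0.68 and Fen1 at -0.23 for the vector, Fen1 at -0.068 and Mcm2 at -0.22 for docetaxel, Cdt1 at -0.21 for cabozantinib and Mcm2 at -5.6e-05 for the combination. In EV alone they were Fen1 at -0.026 and Mcm2 at -0.061 for docetaxel, Pold1 at -0.34 and Cdt1 at -0.51 for cabozantinib, Pold1 at -0.27, Cdt1 at -0.42 and Mcm2 at -0.0082 for anti-PD-L1, and Pold1 at -1.48, Cdt1 at -0.999 and Mcm2 at -0.092 for the combination. Without set B they were Fen1 at -0.12 and Mcm2 at -0.15 for docetaxel and Pold1 at -0.43 and Cdt1 at -0.59 for cabozantinib. These last are EV comparisons already named for EV alone, refitted. The cause of these changes was not tested.

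With 1 library left out at a time, members called ranged from 0 to 1 for the vector (1, Cdt1 at 0.82, without EV anti-PD-L1 1), 0 to 2 for docetaxel, 0 to 1 for cabozantinib (1 without IL27v media 2) and 0 to 10 for IL-27. Between vectors they ranged from 0 to 2 for cabozantinib (2 without EV media 1, either EV anti-PD-L1 library, IL27v media 2 or EV IL-27 1), 0 to 2 for anti-PD-L1 (2 without EV anti-PD-L1 1 or IL27v media 2) and 0 to 3 for the combination. Medians ranged from -0.037 to 0.13 for docetaxel and 0.027 to 0.26 for cabozantinib. Between vectors they ranged from -0.093 to 0.26 for docetaxel, -0.0036 to 0.46 for cabozantinib, 0.0024 to 0.46 for anti-PD-L1, -0.26 to 0.090 for IL-27 and -0.15 to 0.18 for the combination. The additive fits gave no value for the difference between vectors, and leaving out set B gave none there or for the combination. The fit with library sets leaves out IL27v docetaxel 1, and in it the vectors meet only in set B.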
